A study of Mus musculus with 9 samples.

Results

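Transcript levels of 39 genes of the Wnt pathway and of the crypt base were followed in normal colonic mucosa of mice given 1,2-dimethylhydrazine (DMH), with or without butyrate. The genes were taken from a list of gene names and matched to the arrays through RefSeq accessions. That list was chosen with earlier results of these data known. Of the 39, 37 had a probe and 35 were tested, among 21939 features tested in all, 15376 of them named genes. Ccnd1 and Lrp6 were not analysed here, and Axin2 and Wnt5a were too dim for the test. RNA came from ICR mice, an outbred stock, and was hybridised to 9 single-colour arrays. All 9 samples came from animals injected under the skin with DMH, a carcinogen of the rodent colon, given weekly for 20 weeks at 20 mg/kg. In 3 samples the mice also drank water with 1.5% butyrate and bore tumors, in 3 they drank 1.5% butyrate and bore no tumors, and in 3 they had normal water and diet and DMH alone. Butyrate is a short-chain fatty acid that colon epithelium burns as fuel and that inhibits histone deacetylases. The question posed by the design is which genes differ between the butyrate groups and DMH alone. No sample came from mice without DMH. In what follows, arrays with and without tumors are those of normal mucosa from butyrate-fed mice that bore or lacked tumors.

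Wnt ligands bind Frizzled and Lrp receptors, which stops the destruction complex of Apc, Axin and Gsk3b from marking β-catenin for breakdown. β-Catenin then enters the nucleus and switches on target genes with TCF and LEF factors. In the colon the pathway keeps stem cells at the base of the crypts dividing, several of its targets encode its own inhibitors, and its uncontrolled activity is a hallmark of colon tumors.

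Promoter windows of 300 bases, from 250 before to 50 after the start of a gene, were found in RefSeq (build GRCm38.p6) for 25 member genes, with 37 windows in all. They are shown because TCF and LEF factors bind the words CTTTGAT and CTTTGAA, which were searched on both strands. A match stood in 4 of the 37 windows (10.8%), against 8.65% of the 32851 windows of all genes. These matches were in Sp5, Wnt5b, Tnfrsf19 and Wnt11, and for 3 of them the window is printed, with the match in capitals.
Sp5: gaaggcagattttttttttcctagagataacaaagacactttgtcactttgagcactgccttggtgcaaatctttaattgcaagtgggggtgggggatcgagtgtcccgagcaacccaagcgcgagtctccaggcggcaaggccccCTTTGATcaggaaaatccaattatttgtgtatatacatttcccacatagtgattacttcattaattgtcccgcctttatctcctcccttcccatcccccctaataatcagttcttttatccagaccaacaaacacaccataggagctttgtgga
Wnt5b: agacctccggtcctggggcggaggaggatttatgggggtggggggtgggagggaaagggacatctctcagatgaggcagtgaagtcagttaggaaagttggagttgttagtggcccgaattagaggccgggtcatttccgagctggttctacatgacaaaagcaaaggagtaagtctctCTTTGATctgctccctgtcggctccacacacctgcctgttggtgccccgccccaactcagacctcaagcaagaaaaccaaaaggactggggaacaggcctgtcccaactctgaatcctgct
Tnfrsf19: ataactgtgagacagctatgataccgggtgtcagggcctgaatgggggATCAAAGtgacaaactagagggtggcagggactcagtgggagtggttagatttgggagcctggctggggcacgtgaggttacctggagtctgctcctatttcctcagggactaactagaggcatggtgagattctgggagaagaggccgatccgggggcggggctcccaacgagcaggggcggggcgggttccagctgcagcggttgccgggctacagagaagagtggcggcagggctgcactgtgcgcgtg
The Sp5 window (chr2:70474673-70474972, plus strand) held CTTTGAT with its first base at position -104 relative to the start. The Wnt5b window (chr6:119449337-119449636, minus strand) held the same word at position -71, and the other 2 windows of Wnt5b held none. The Tnfrsf19 window (chr14:61037938-61038237, minus strand) held ATCAAAG, the same word on the other strand, at position -202. Wif1, Nkd1 and Wnt6 were among the genes that fell most without tumors against DMH and held neither word in the window searched.
Wif1: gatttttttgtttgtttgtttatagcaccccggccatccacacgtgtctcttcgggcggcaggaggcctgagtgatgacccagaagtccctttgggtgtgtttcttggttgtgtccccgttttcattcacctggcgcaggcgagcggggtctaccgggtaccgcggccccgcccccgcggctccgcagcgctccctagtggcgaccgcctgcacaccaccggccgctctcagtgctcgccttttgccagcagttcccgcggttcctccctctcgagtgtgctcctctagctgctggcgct
Nkd1: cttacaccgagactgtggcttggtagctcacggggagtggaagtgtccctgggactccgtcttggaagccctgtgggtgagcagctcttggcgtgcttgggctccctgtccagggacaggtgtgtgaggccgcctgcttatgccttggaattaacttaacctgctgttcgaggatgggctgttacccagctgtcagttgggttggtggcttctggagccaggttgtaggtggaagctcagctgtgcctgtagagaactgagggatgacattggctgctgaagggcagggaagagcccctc
Wnt6: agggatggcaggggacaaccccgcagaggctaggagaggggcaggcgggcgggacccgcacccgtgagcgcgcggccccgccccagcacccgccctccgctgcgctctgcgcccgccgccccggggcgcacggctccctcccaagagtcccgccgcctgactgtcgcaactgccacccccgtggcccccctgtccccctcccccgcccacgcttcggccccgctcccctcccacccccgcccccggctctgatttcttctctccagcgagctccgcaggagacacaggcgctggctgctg
The windows of Wif1 (chr10:121033754-121034053, plus strand) and Wnt6 (chr1:74771642-74771941, plus strand) held 25 and 31 CpG pairs, and that of Nkd1 (chr8:88527383-88527682, plus strand) held 6, with a median of 7 over all windows.

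Levels are log2 signals relative to the 75th percentile of the array, so 0 is the signal at that percentile, and levels of different genes are not comparable because each probe has its own brightness. The 75th percentile signal ran from 188 on array 1 with tumors to 880 on array 3 with tumors. The share of spots well above background lay between 57.8% and 72.5%. Nothing in the labels ties the samples of a group to separate animals. The p-values therefore cover the spread among these samples alone, which may be technical, and 3 arrays a group limit the precision. Tumor status follows the titles, descriptions and source names. Another field of the labels contradicts them in each of the 6 butyrate samples, and under it every difference between the butyrate groups would turn its sign and each group's values against DMH would belong to the other. The titles of the DMH samples do not state whether those mice bore tumors.

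Slide and group overlapped. Slide 1 carried array 1 with tumors and all 3 without tumors, slide 2 carried arrays 2 and 3 with tumors, slide 3 carried DMH array 1 and slide 4 carried DMH arrays 2 and 3. No slide held both DMH and butyrate arrays, and scan day separated them as well. Against DMH, the effects of slide, scan day and butyrate therefore cannot be told apart. The 75th percentile signal was 188 to 444 on slide 1 and 740 to 880 on the other slides. Among the 35 tested genes, 15 (42.9%) were lower on all 4 arrays of slide 1 than on all 5 other arrays, against 13.6% of all features. They were Nkd1, Sp5, Myc, Rnf43, Tnfrsf19, Lgr5, Ascl2, Smoc2, Prom1, Wnt5b, Wnt6, Notum, Wif1, Dkk2 and Ctnnb1. Only Tcf7l2 and Dvl2 (5.71%) were higher on all 4 arrays of slide 1, against 14.5% of all features. Array 1 with tumors thus stood with the arrays without tumors in these genes, and whether slide, signal or tissue set this was not tested. The shares of tested genes given here come from a list chosen with earlier results of these data known.

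The arrays with tumors also differed among themselves. Over the tested genes, the median level relative to the mean of the DMH arrays was -0.73, -0.02 and 0.38 on arrays 1, 2 and 3 with tumors, against -0.73, -0.37 and -0.41 without tumors. Array 3 with tumors was above all 3 DMH arrays in 21 of the 35 genes (60.0%), against 45.7% of all features, and was the highest of the 9 arrays in 11, against 15.2% of all features. Array 1 with tumors was the lowest of the 9 in 11, against 16.0% of all features, including all 5 crypt-base genes. The median SD over the tested genes was 0.64 with tumors and 0.41 without tumors, against 0.08 for the DMH arrays. Over all features these medians were 0.38 with tumors and 0.27 without tumors, against 0.12 for DMH.

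**Figure D1:**
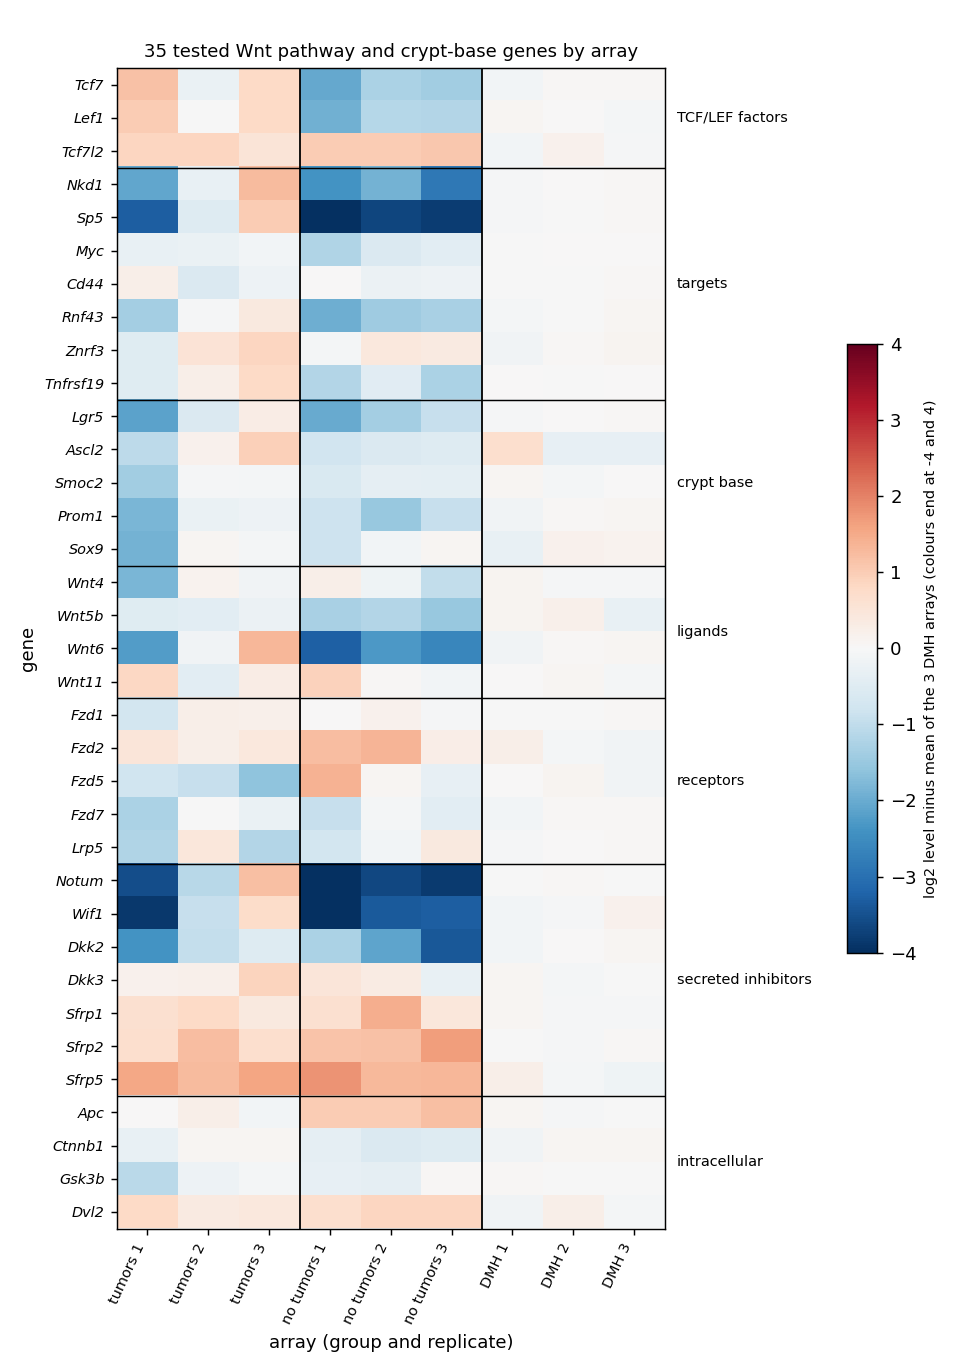
Level of each of the 35 tested genes on each of the 9 arrays, as log2 level minus the mean of the 3 DMH arrays, with genes grouped by role from top to bottom and colours that end at -4 and 4. The column of array 1 with tumors is blue in the rows of Sp5, Nkd1, Rnf43, Notum and Wif1, as are the 3 columns without tumors, while Notum, Wif1, Sp5, Nkd1 and Wnt6 are red on array 3 with tumors.

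Relative to DMH alone, 18 of the 35 genes changed without tumors and 2 with tumors. Without tumors 7 rose and 11 fell, 51.4% of the genes, against a background of 30.5% of all features that passed the same test (16.7% higher and 13.8% lower). At an unadjusted p under 0.05 there were 22, where 44.5% of all features reached it. Because the genes were chosen with earlier results of these data known, shares above the background are not independent support. The median log2 fold change of the 35 genes was -0.46 without tumors, and that of all features was 0.08. With tumors 2 rose and none fell, at a background of 5.70% (3.45% higher and 2.25% lower), with a median of -0.21 against 0.08 for all features. At an unadjusted p under 0.05 there were 5 genes with tumors, where 29.9% of all features reached it. When all 6 butyrate arrays were set against DMH, 3 rose and none fell, at a background of 9.21% (5.85% higher and 3.35% lower), and 11 had an unadjusted p under 0.05, where 31.2% of all features reached it. Between the butyrate groups, 3 were higher and 2 lower with tumors than without, at a background of 13.6% (7.0% higher and 6.57% lower). At an unadjusted p under 0.05 there were 14, where 34.6% of all features reached it. The test was limma's moderated test, with Benjamini-Hochberg adjustment over the 21939 features and calls at an adjusted p under 0.05. Its spread was estimated over all 9 arrays, so the DMH arrays also entered the comparison of the butyrate groups.

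Groups that did not overlap were counted apart from the test. Without tumors all 3 arrays were above all 3 DMH arrays in 7 genes and below them in 17, where 60.0% of all features separated (32.8% above and 27.2% below). With tumors they were above in 6 and below in 5, where 42.6% of all features separated (23.1% above and 19.5% below). With tumors they were above all arrays without tumors in 8 and below them in 3, where 33.4% separated (16.8% above and 16.6% below). All 6 butyrate arrays were above all DMH arrays in 5 genes and below them in 3, where 26.4% separated (14.5% above and 11.9% below). The number of calls depended on the scaling and on single arrays. Without scaling, which moved the median of all features to -1.0 without tumors against DMH, 0 genes rose and 9 fell there. Between the butyrate groups normexp background correction gave 4 higher and 1 lower. For all butyrate arrays against DMH, normexp gave 3 higher and 1 lower, and the authors' deposited values gave 1 in each direction. Without tumors against DMH, 10 and 11 genes were called when array 1 or 2 without tumors was left out, and 8, 7 and 6 when DMH array 1, 2 or 3 was left out. Between the butyrate groups, leaving out array 1 with tumors gave 16 calls, leaving out array 3 with tumors gave 0, and leaving out array 1 without tumors gave 3. When the DMH arrays were left out of that fit, 0 of the 21939 features passed between the butyrate groups.

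Slide was also fitted as a random block. No slide held both DMH and butyrate arrays, so this fit cannot take a slide effect out of a comparison with DMH. Of the 18 genes called without tumors against DMH, Tcf7l2, Wnt5b, Sfrp2, Sfrp5 and Apc passed in that fit, and no gene passed with tumors or with all butyrate arrays against DMH. Lef1, Tcf7l2, Wnt5b, Sfrp2, Sfrp5 and Apc passed without tumors against DMH whichever of the 9 arrays was left out. No gene did so in the other 3 comparisons.

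**Figure D2:**
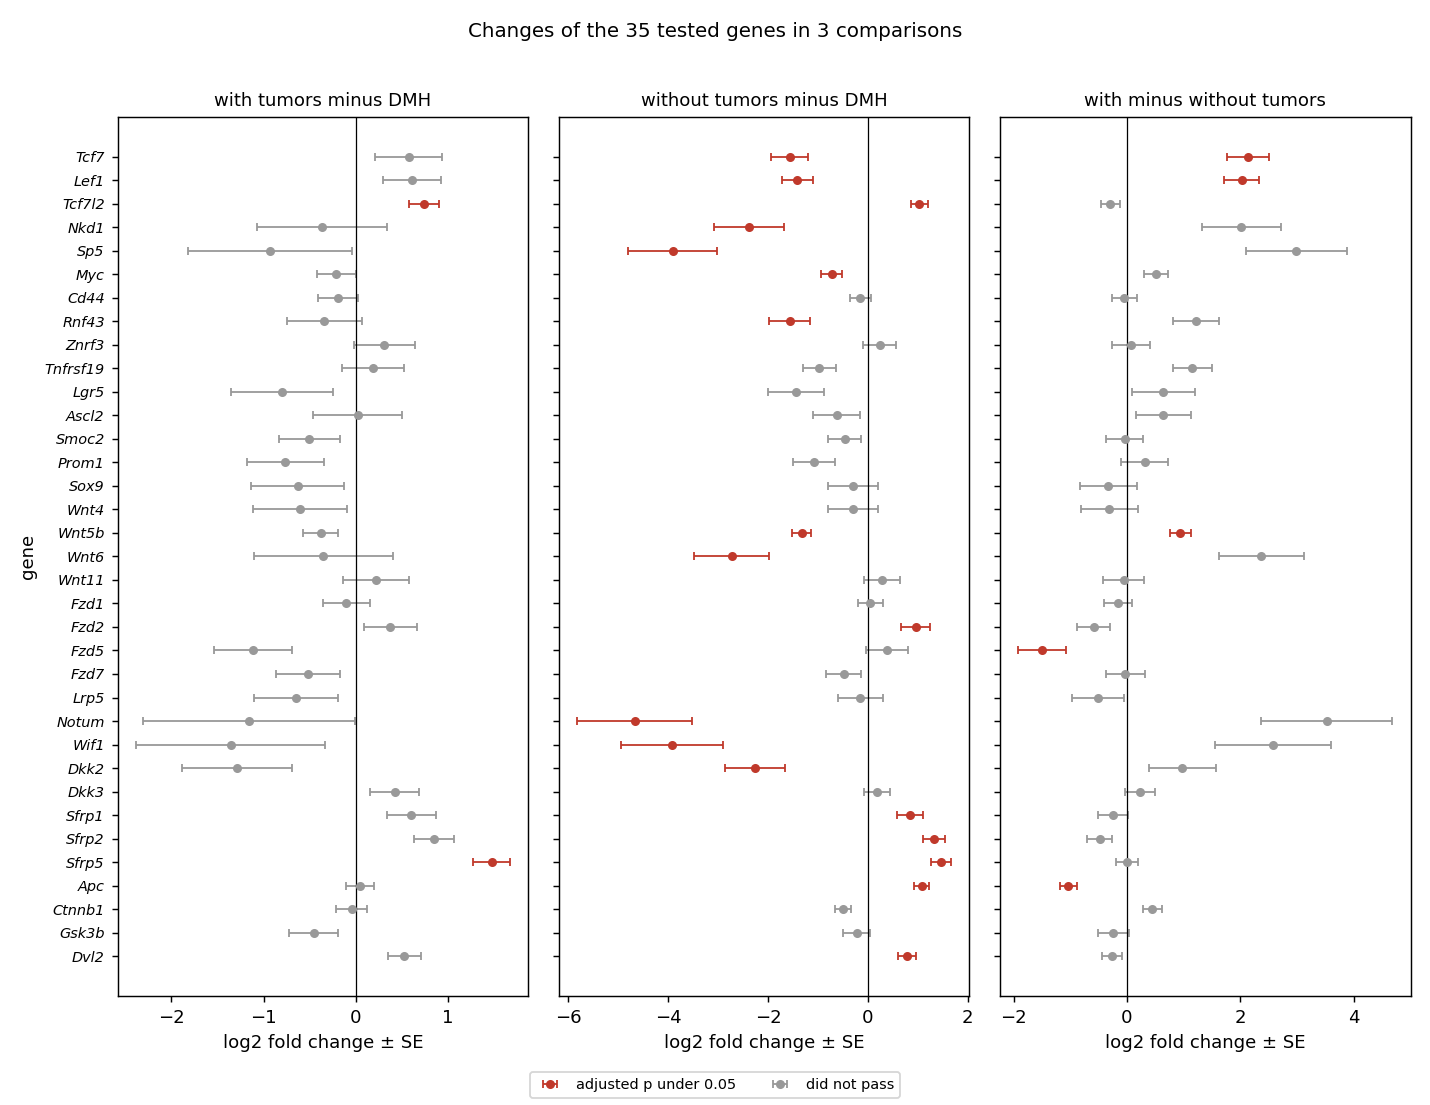
Log2 fold change of each of the 35 tested genes in 3 comparisons, with bars of 1 SE, each panel having its own axis; red points passed at an adjusted p under 0.05. The middle panel holds 18 red points, from Notum at -4.67 to Sfrp5 at 1.47, against 2 in the left panel and 5 in the right.

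The 3 TCF and LEF genes each changed without tumors against DMH, where 30.5% of all features changed. Tcf7 and Lef1 fell and Tcf7l2 rose, though Tcf7l2 was at -0.044 without scaling. Tcf7 encodes TCF1, a factor found in Wnt-responsive epithelium and abundant in T cells. Its levels were 1.89, 0.45 and 1.50 with tumors, -1.34, -0.55 and -0.68 without tumors, and 0.61, 0.76 and 0.75 with DMH alone. All arrays without tumors were below all others, and the arrays with tumors spanned the DMH values. Tcf7 fell without tumors against DMH (log2 fold change -1.56 ± 0.37 (SE), adjusted p = 0.0161) and was higher with tumors than without (2.14 ± 0.37 (SE), adjusted p = 0.016). Lef1 encodes a related factor that is also abundant in lymphocytes. Levels were -1.74, -2.78 and -1.96 with tumors, -4.69, -3.90 and -3.95 without tumors, and -2.70, -2.74 and -2.86 with DMH alone. Its groups were ordered as those of Tcf7, with the arrays without tumors lowest. Lef1 fell without tumors against DMH (-1.42 ± 0.31 (SE), adjusted p = 0.013) and was 4.06-fold higher with tumors than without (2.02 ± 0.31 (SE), adjusted p = 0.0133).

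Both differences between the butyrate groups held their size within slide 1, where 1 array with tumors stands against 3 without. With slide as a fixed block, which for every gene compares that 1 array with those 3, the values were 2.75, adjusted p = 0.0226 for Tcf7 and 2.44, adjusted p = 0.0236 for Lef1. Within slide 1 alone, where the lone array with tumors is assumed to vary like the others, the same differences had adjusted p = 0.089 and 0.0938. Without array 3 with tumors both missed the threshold, with adjusted p = 0.0669 for Tcf7 and 0.0567 for Lef1. Both also missed the threshold when the DMH arrays were left out of the fit, where 0 of the 21939 features passed. Without DMH array 2 or 3 the fall of Tcf7 against DMH missed it as well, with an adjusted p of up to 0.0566. In the random slide block, Tcf7 and Lef1 without tumors against DMH were -1.79, adjusted p = 0.0819 and -1.59, adjusted p = 0.0785.

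Markers of T and B cells were read beside these genes, and their part in the result was not tested. Of 10 listed T cell markers 9 were tested, and 1 of the 9, the T cell co-receptor gene Cd4, was at least 1.52-fold higher with tumors than without (adjusted p = 0.0206) and at least 1.68-fold lower without tumors than with DMH alone (adjusted p = 0.00681), being well above background on no array without tumors. The other 8 were not called in either comparison. The summed linear level of the 9 ran from 15.1 to 57.9 with tumors, from 10.4 to 12.9 without tumors and from 10.7 to 11.8 with DMH alone. Of 6 listed B cell markers 5 were tested and none was called between the butyrate groups. At an unadjusted p under 0.05 there were 3 of the 5, where 34.6% of all features reached it. The summed level of the 5 ran from 15.9 to 92.6 with tumors, from 7.65 to 13.7 without tumors and from 12.9 to 14.8 with DMH alone. Array 1 with tumors held the highest value in both lists and in Tcf7 and Lef1. In the arrays without tumors, the median T cell marker stood at -0.16, 0.52 and 0.56 relative to DMH. The median B cell marker stood at -0.84, 0.26 and 0.04 there. Tcf7 and Lef1 were below DMH on all 3. In bulk mucosa, fewer cells of a type and less RNA per cell cannot be told apart.

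**Figure D3:**
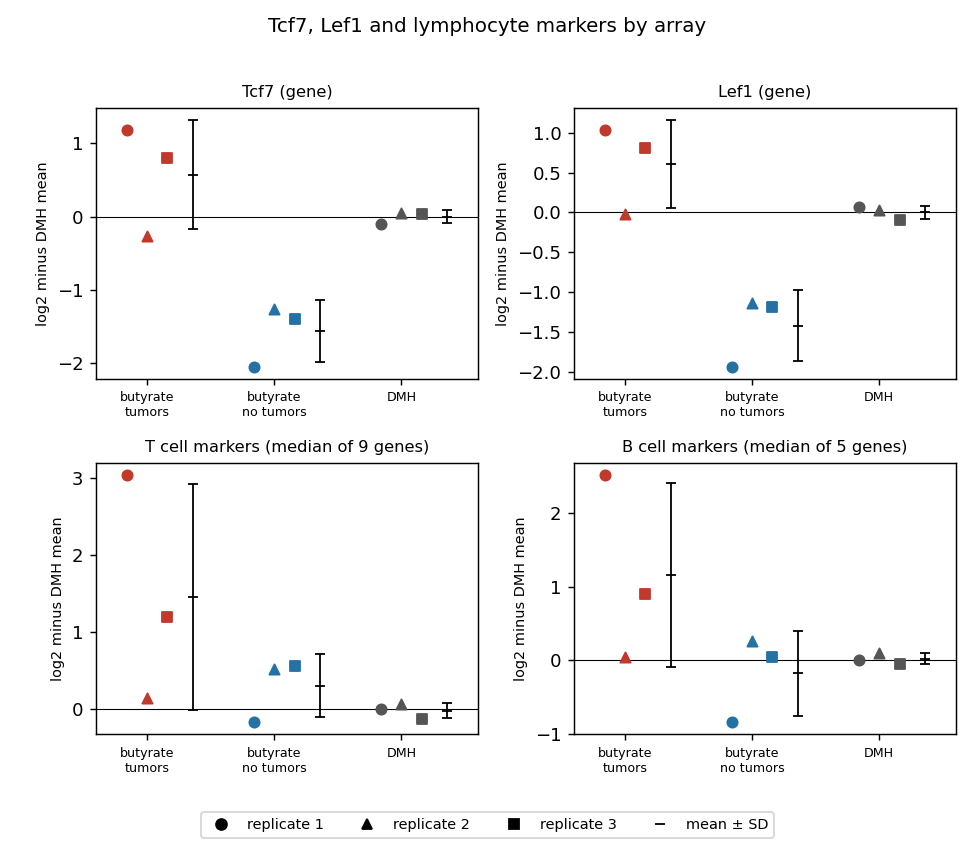
Log2 level relative to the mean of the DMH arrays for Tcf7, Lef1 and the median of 9 T cell and 5 B cell markers, with 1 point per array and bars of mean ± SD (n = 3 each). Array 1 with tumors is the highest in each panel. The arrays without tumors lie below DMH for Tcf7 and Lef1 and on both sides of it for the T and B cell markers.

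Tcf7l2 encodes TCF4, the TCF factor most used by intestinal epithelium. Across the arrays it stood at 3.75, 3.74 and 3.38 with tumors, 3.89, 3.91 and 3.95 without tumors, and 2.77, 3.04 and 2.83 with DMH alone. All 6 butyrate arrays were above all 3 DMH arrays. Tcf7l2 rose without tumors (1.04 ± 0.16 (SE), adjusted p = 0.00442), with tumors (0.74 ± 0.16 (SE), adjusted p = 0.0418) and over all butyrate arrays (0.89 ± 0.18 (SE), adjusted p = 0.0276). These comparisons share the DMH arrays. Without scaling the median of all features without tumors was -1.0, beside the -0.044 of Tcf7l2. With tumors the call ended when any array other than array 1 without tumors was left out, with adjusted p up to 0.155, and in the random slide block (adjusted p = 0.149). Over all butyrate arrays it ended without array 2 without tumors or any DMH array, with adjusted p up to 0.137.

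Of the 7 tested Wnt targets, 4 fell without tumors against DMH and none rose, where 13.8% of all features fell and 16.7% rose. None of the 7 was called in the other comparisons. Sp5 encodes a zinc finger factor and is a direct target of β-catenin, and its promoter window is the one printed above with CTTTGAT. Its log2 levels were -2.45, 0.35 and 1.87 with tumors, -3.42, -2.81 and -2.94 without tumors, and 0.82, 0.84 and 0.91 with DMH alone. The arrays without tumors were all far below DMH, and array 1 with tumors lay near them while array 3 with tumors lay above DMH. Sp5 was 15.1-fold lower without tumors than with DMH alone (-3.91 ± 0.89 (SE), adjusted p = 0.0148). With tumors it stood at -0.93 against DMH (adjusted p = 0.507) and at 2.98 against the arrays without tumors (adjusted p = 0.0586). With slide as a fixed block the difference between the butyrate groups was 0.61. The call against DMH ended without DMH array 2 or 3 (adjusted p up to 0.0504) and in the random slide block (-2.99, adjusted p = 0.129).

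Nkd1 encodes a cytoplasmic protein that binds Dishevelled and restrains Wnt signals. Its levels were 0.67, 2.43 and 4.0 with tumors, 0.34, 0.84 and -0.14 without tumors, and 2.69, 2.74 and 2.77 with DMH alone. Array 3 with tumors was the highest of all and the arrays without tumors were below every DMH array. Nkd1 fell without tumors (-2.39 ± 0.70 (SE), adjusted p = 0.0344). Rnf43 and Znrf3 encode ubiquitin ligases that remove Frizzled receptors from the cell surface. Rnf43 had levels of 1.21, 2.5 and 2.95 with tumors, 0.61, 1.14 and 1.26 without tumors, and 2.49, 2.55 and 2.65 with DMH alone, with array 1 with tumors again among the arrays without tumors. It fell without tumors (-1.56 ± 0.41 (SE), adjusted p = 0.0229), whereas Znrf3 had 0.24 (adjusted p = 0.602). Myc encodes a growth factor-responsive transcription factor that drives proliferation. The 9 arrays gave 2.49, 2.52 and 2.68 with tumors, 1.59, 2.21 and 2.37 without tumors, and 2.76, 2.78 and 2.79 with DMH alone. All 6 butyrate arrays were below all DMH arrays, by little with tumors. Myc fell without tumors (-0.72 ± 0.21 (SE), adjusted p = 0.0339), and its value with tumors was -0.21 (adjusted p = 0.524). These 3 calls ended without any one DMH array, and without array 1 or 2 without tumors, and for Nkd1 without array 3 as well, with adjusted p up to 0.0919 for Nkd1, 0.0731 for Rnf43 and 0.1 for Myc. In the random slide block adjusted p was 0.263, 0.188 and 0.216. Beside them, 4 of 12 proliferation markers fell without tumors against DMH, where 13.8% of all features fell. The part of these markers was not tested.

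The other tested targets did not pass in any comparison on the probe used. Tnfrsf19, a receptor of the tumor necrosis factor family found on crypt-base cells, had -0.97 without tumors against DMH (adjusted p = 0.06) and 1.15 with tumors against without (adjusted p = 0.0564). Cd44, a hyaluronan receptor, had -0.15 without tumors against DMH on the probe used, while both its other probes fell and passed there, as given below. Axin2, a scaffold of the destruction complex and a widely used readout of Wnt signals, was well above background on arrays 2 and 3 with tumors alone. Levels were -6.43, -3.79 and -2.69 with tumors, -7.09, -7.49 and -7.56 without tumors, and -6.85, -6.06 and -6.33 with DMH alone. The mean with tumors was at least 2.18-fold higher than DMH and at least 2.14-fold higher than the group without tumors. For these bounds the dim groups were set at the lowest signal well above background on each array. Only 2 of the 3 arrays with tumors measured Axin2, and array 1 with tumors lay within the DMH range. With no filter on dim probes, neither difference passed in limma. Adjusted p was 0.175 relative to DMH and 0.0641 relative to the arrays without tumors.

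**Figure D4:**
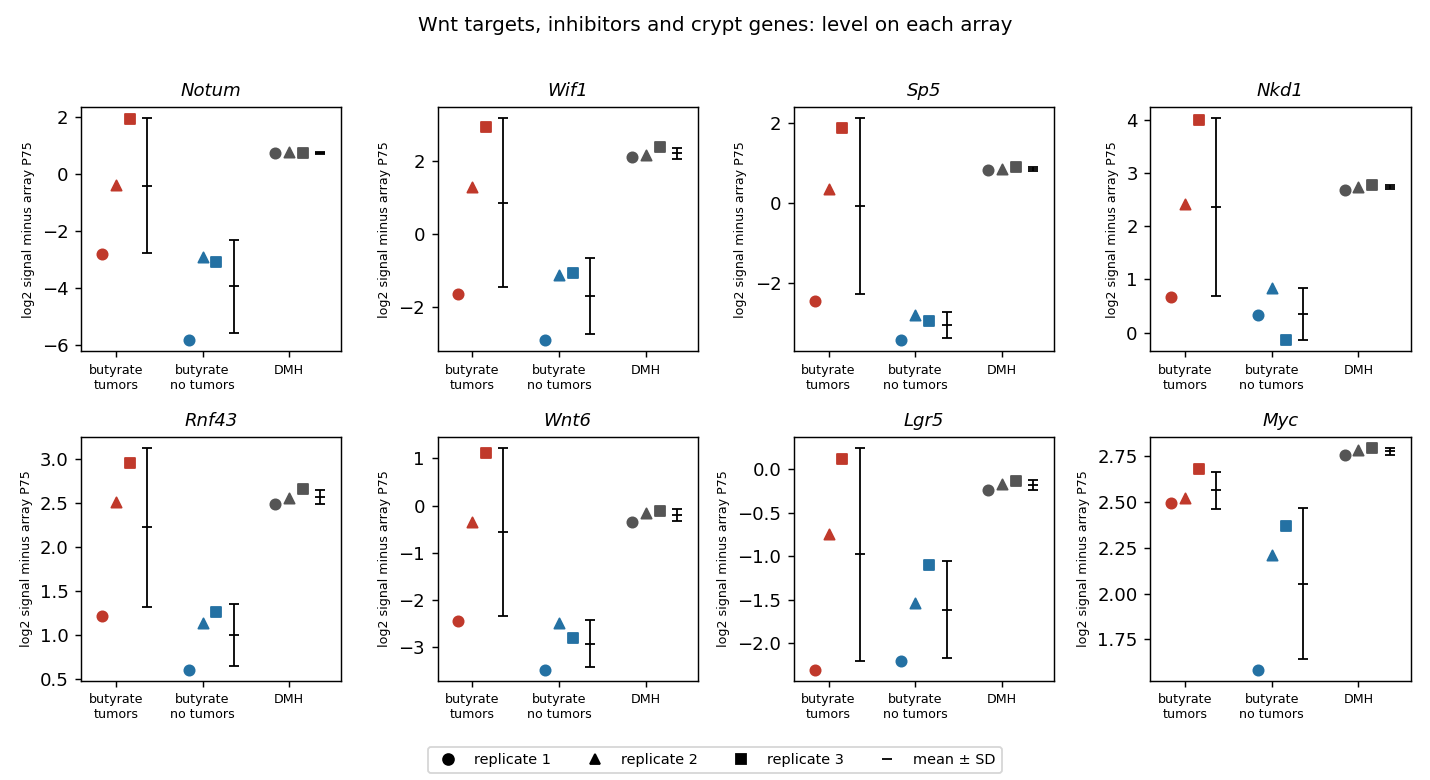
Log2 level of 8 genes on each array, as points by group and replicate, with bars of mean ± SD (n = 3 each) and a separate axis per gene. For Notum, Wif1, Sp5, Nkd1, Rnf43 and Wnt6, arrays 1 to 3 with tumors spread from near the arrays without tumors to above the tight DMH arrays.

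None of the 5 crypt-base genes was called, on the probe used, in any of the 4 limma comparisons without a slide block. With slide as a fixed block, which compares array 1 with tumors with the 3 without, all 5 genes were lower with tumors. Those values ran from -0.42 for Ascl2 to -1.59 for Sox9. Their medians against DMH were -0.63 with tumors and -0.62 without tumors. The first of these rested on array 1 with tumors, as the medians relative to DMH were -1.83, -0.045 and -0.062 on arrays 1, 2 and 3 with tumors, against -0.83, -0.59 and -0.51 without tumors. Without the arrays of slide 1, the median with tumors against DMH was -0.066. At an unadjusted p under 0.05 there were 0 of the 5 with tumors and 2 without tumors against DMH, where 29.9% and 44.5% of all features reached it. With tumors against without there were 0, where 34.6% reached it. Lgr5 encodes the R-spondin receptor that marks crypt-base stem cells. Across the arrays it stood at -2.31, -0.75 and 0.12 with tumors, -2.21, -1.55 and -1.10 without tumors, and -0.24, -0.17 and -0.13 with DMH alone. The arrays without tumors were all below the DMH arrays, as were arrays 1 and 2 with tumors, while array 3 with tumors was above them. Lgr5 stood at -1.44 without tumors against DMH (adjusted p = 0.0789) and -0.80 with tumors (adjusted p = 0.355). Ascl2 encodes the transcription factor that sets stem cell identity in the crypt. Its log2 levels were -3.47, -2.26 and -1.48 with tumors, -3.19, -3.01 and -2.94 without tumors, and -1.76, -2.76 and -2.74 with DMH alone. Its groups overlapped except that the arrays without tumors were below all DMH arrays, and DMH array 1 stood above the other DMH arrays. Without tumors its value was -0.62 (adjusted p = 0.339). Smoc2, a secreted matrix protein of stem cells, and Prom1, a membrane protein of the crypt, had -0.46 and -1.08 without tumors against DMH. Sox9, a factor of crypt progenitors, had -0.30 (adjusted p = 0.672) on the probe used. Another probe of Sox9 passed without tumors against DMH, and the second probe of Prom1 passed with tumors against without, as given below. Array 1 with tumors was the lowest of the 9 arrays in each of these 5 genes.

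Of the 4 tested ligands, Wnt5b and Wnt6 fell without tumors against DMH, where 13.8% of all features fell. Wnt5b encodes a ligand that mostly acts without β-catenin. Its levels were -2.48, -2.40 and -2.23 with tumors, -3.27, -3.17 and -3.50 without tumors, and -1.88, -1.78 and -2.30 with DMH alone. The 3 groups did not overlap, apart from DMH array 3 falling within the range with tumors. Wnt5b fell without tumors (-1.33 ± 0.19 (SE), adjusted p = 0.00313) and was higher with tumors than without (0.94 ± 0.19 (SE), adjusted p = 0.0223). With the DMH arrays left out of the fit, the latter did not pass. The fall also passed in the random slide block (-1.30, adjusted p = 0.0392), which cannot take a slide effect out of this comparison. Between the butyrate groups the value with slide as a fixed block was 0.83, adjusted p = 0.0938, with adjusted p = 0.198 within slide 1, and the call ended without array 1 or 3 without tumors or array 3 with tumors (adjusted p up to 0.0806).

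Wnt6 encodes a ligand of epithelia that can act through β-catenin. The 9 arrays gave -2.44, -0.35 and 1.11 with tumors, -3.47, -2.50 and -2.81 without tumors, and -0.35, -0.16 and -0.11 with DMH alone. The arrays without tumors were the lowest, array 1 with tumors stood just above them and array 3 with tumors was the highest of all. Wnt6 was 6.59-fold lower without tumors than with DMH alone (-2.72 ± 0.75 (SE), adjusted p = 0.0279). This call ended without any one DMH array or any one array without tumors, with adjusted p up to 0.0836, and in the random slide block (-1.98, adjusted p = 0.224). Wnt4 and Wnt11 had -0.30 and 0.28 without tumors, and neither was called in any comparison. Wnt5a, the near relative of Wnt5b, was well above background on 2 DMH arrays and on no butyrate array. Levels were -6.45, -6.37 and -5.74 with tumors, -4.96, -6.58 and -7.45 without tumors, and -4.87, -4.99 and -4.94 with DMH alone. Group means were at least 1.18-fold lower with tumors and at least 1.35-fold lower without tumors than DMH, of which 2 of 3 arrays measured it. Array 1 without tumors lay within the DMH range. With no filter on dim probes, limma gave adjusted p = 0.227 with tumors and 0.122 without tumors against DMH, so neither passed.

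Among the 5 tested receptors, Fzd2 rose without tumors against DMH (though it was at -0.12 without scaling) and Fzd5 was lower with tumors than without. Of all features, 16.7% rose in the first comparison and 6.57% were lower in the second. Frizzled receptors hold the Wnt ligand at the cell surface, and Lrp5 is their partner. Fzd2 had levels of -0.79, -1.05 and -0.84 with tumors, -0.02, 0.10 and -1.0 without tumors, and -1.04, -1.36 and -1.41 with DMH alone. Arrays 1 and 2 without tumors were the highest, and array 3 without tumors was close to DMH array 1. It rose without tumors (0.96 ± 0.29 (SE), adjusted p = 0.0369). This call ended without any DMH array, array 1 or 2 without tumors or array 3 with tumors, with adjusted p up to 0.115. Fzd5, a receptor needed for Paneth cells to mature in the mouse small bowel, had levels of -1.97, -2.10 and -2.78 with tumors, 0.22, -1.08 and -1.48 without tumors, and -1.14, -1.05 and -1.30 with DMH alone. All arrays with tumors were below all others, and array 1 without tumors was the highest. Fzd5 was lower with tumors than without (-1.50 ± 0.42 (SE), adjusted p = 0.0493) and had -1.12 with tumors against DMH (adjusted p = 0.122). The difference between the butyrate groups was -1.18, adjusted p = 0.281 with slide as a fixed block and had adjusted p = 0.436 within slide 1. It held only when array 3 without tumors or array 1 with tumors was left out, with adjusted p up to 0.161 without each of the other 7. It did not pass with all DMH arrays left out of the fit. Fzd1, Fzd7 and Lrp5 were not called in the fits without a slide block. With slide as a fixed block they had -0.78, -0.80 and -1.05 with tumors against without, from array 1 with tumors alone. Fzd7, a receptor of crypt stem cells, had levels of -1.86, -0.59 and -0.84 with tumors, -1.51, -0.67 and -1.01 without tumors, and -0.70, -0.52 and -0.52 with DMH alone. Its groups overlapped in each pair. With tumors against DMH, Fzd1, Fzd7 and Lrp5 had -0.10, -0.52 and -0.65, and without tumors they had 0.06, -0.48 and -0.15.

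The 7 secreted inhibitors split in 2 directions without tumors against DMH, with 3 lower and 3 higher, where 13.8% of all features fell and 16.7% rose. Of the 3 higher, Sfrp1 was at -0.24 without scaling. Notum encodes an enzyme that strips the lipid from Wnt ligands and is itself a Wnt target. Its levels were -2.79, -0.38 and 1.93 with tumors, -5.82, -2.90 and -3.09 without tumors, and 0.73, 0.77 and 0.71 with DMH alone. The arrays without tumors were all below every other array but array 1 with tumors came next to them, and array 3 with tumors was above DMH. Notum fell without tumors against DMH (-4.67 ± 1.15 (SE), adjusted p = 0.0191). It was well above background on 2 of the 3 arrays without tumors, and with the dim array raised to the lowest signal well above background there it was 21.5-fold lower without tumors than with DMH alone. Wif1 encodes a protein that binds Wnt ligands outside the cell. Across the arrays it stood at -1.65, 1.29 and 2.94 with tumors, -2.92, -1.14 and -1.09 without tumors, and 2.10, 2.16 and 2.38 with DMH alone. Array 1 with tumors lay among the arrays without tumors, array 2 with tumors below DMH and array 3 with tumors above DMH. Wif1 was 15.2-fold lower without tumors than with DMH alone (-3.93 ± 1.02 (SE), adjusted p = 0.023).

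With tumors, Notum and Wif1 had -1.15 and -1.36 against DMH, with adjusted p = 0.525 and 0.395. In a fit without slide 1, which was added once the data had been seen, these were 0.036 and -0.10. Dkk2, which binds the Lrp co-receptors, had levels of -3.35, -1.91 and -1.48 with tumors, -2.22, -3.08 and -4.35 without tumors, and -1.07, -0.93 and -0.87 with DMH alone. All butyrate arrays were below all DMH arrays. Dkk2 fell without tumors (-2.26 ± 0.59 (SE), adjusted p = 0.0235) and had -1.29 with tumors (adjusted p = 0.184). The 3 falls ended in the random slide block, with adjusted p = 0.177 for Notum, 0.195 for Wif1 and 0.21 for Dkk2. They also ended without any one DMH array and without array 1 without tumors (Notum and Wif1) or array 2 or 3 without tumors (Dkk2), with adjusted p up to 0.0602, 0.073 and 0.0719.

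The secreted Frizzled-related proteins bind Wnt ligands through a domain like that of the receptors. Sfrp5 had levels of -1.76, -2.05 and -1.75 with tumors, -1.54, -2.03 and -2.0 without tumors, and -3.10, -3.39 and -3.49 with DMH alone. All 6 butyrate arrays were above all 3 DMH arrays, and the butyrate groups overlapped. It rose without tumors (1.47 ± 0.20 (SE), adjusted p = 0.00256), with tumors (1.47 ± 0.20 (SE), adjusted p = 0.0226) and over all butyrate arrays (1.47 ± 0.18 (SE), adjusted p = 0.0116). Between the butyrate groups its difference was 0.00 ± 0.20 (SE). With tumors the call ended without array 3 with tumors or DMH array 2 or 3 (adjusted p up to 0.109), and over all butyrate arrays without DMH array 2 or 3 (adjusted p up to 0.102).

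Sfrp2 had levels of -0.92, -0.36 and -0.90 with tumors, -0.44, -0.40 and 0.11 without tumors, and -1.59, -1.61 and -1.53 with DMH alone. Again all butyrate arrays were above all DMH arrays. Sfrp2 rose without tumors (1.33 ± 0.22 (SE), adjusted p = 0.00511) and over all butyrate arrays (1.09 ± 0.24 (SE), adjusted p = 0.0317), and had 0.85 with tumors (adjusted p = 0.0555). The call over all butyrate arrays ended without array 2 without tumors or any DMH array, with adjusted p up to 0.141. Sfrp1 had levels of 0.58, 0.73 and 0.33 with tumors, 0.57, 1.40 and 0.39 without tumors, and 0.04, -0.11 and -0.10 with DMH alone, with array 2 without tumors the highest. It rose without tumors (0.85 ± 0.26 (SE), adjusted p = 0.0418), other than without scaling, where it was at -0.24. This call ended without any DMH array, array 1 or 2 without tumors or array 2 or 3 with tumors, with adjusted p up to 0.118. Dkk3, a distant member of the Dkk family, had 0.18 without tumors and 0.42 with tumors and was not called.

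Markers of smooth muscle and of enteric neurons and glia were higher by median where the Sfrp genes rose, and their part was not tested. Of 10 smooth muscle markers 5 rose without tumors against DMH, and of 10 enteric neuron and glia markers 5 rose. Over all features 16.7% rose and 13.8% fell there. With tumors against DMH, 0 of 10 were called in each of these lists, where 3.45% of all features rose. The median log2 fold change of the smooth muscle markers was 1.097 without tumors and 1.055 with tumors. For the neuron and glia markers it was 1.459 and 1.135. The summed level of the smooth muscle markers ran from 442 to 885 with tumors, from 389 to 850 without tumors and from 225 to 385 with DMH alone. The fibroblast list had 1 of 9 higher without tumors against DMH and a median of -0.13. There 3 of the 9 were below all DMH arrays, as were 27.2% of all features. Of 15 tested markers of colon epithelium 6 fell and 1 rose without tumors against DMH, with summed linear levels of 732 to 1047 with tumors, 833 to 1028 without tumors and 1493 to 1712 with DMH alone. All 7 goblet cell markers were below DMH on every butyrate array, as were 11.9% of all features. Against DMH, 5 were called with tumors and 4 without tumors, where 2.25% and 13.8% of all features fell. Medians of the 7 were -1.86 with tumors and -1.32 without tumors. Their summed level ran from 191 to 749 with tumors, from 422 to 565 without tumors and from 1286 to 1409 with DMH alone.

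Myeloid markers moved in the comparison where the Wnt targets fell, and their part was not tested. Of 7 listed, 6 were tested, and 4 of the 6 fell without tumors against DMH, where 13.8% of all features fell. With tumors against without, 3 of the 6 were higher, where 7.0% of all features were higher. S100a8 and S100a9 encode calcium-binding proteins abundant in neutrophils. S100a8 was well above background on no array without tumors, where it was at least 15.1-fold lower than with DMH alone (adjusted p = 0.0039), and it was at least 14.3-fold higher with tumors than without (adjusted p = 0.0133). S100a9 had -4.84 without tumors against DMH (adjusted p = 0.00979) and 3.50 with tumors against without (adjusted p = 0.0489). The summed level of the 6 ran from 21.5 to 25.1 with tumors, from 18.1 to 23.4 without tumors and from 24.9 to 25.3 with DMH alone.

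Among the 4 intracellular genes, Apc and Dvl2 rose without tumors against DMH, where 16.7% of all features rose, though Dvl2 was at -0.29 without scaling. Apc encodes the scaffold of the destruction complex that most human colon tumors lose. Its log2 levels were 0.69, 0.91 and 0.58 with tumors, 1.69, 1.70 and 1.89 without tumors, and 0.76, 0.62 and 0.66 with DMH alone. The arrays without tumors were all above the others, and the arrays with tumors overlapped DMH. Apc rose without tumors against DMH (1.08 ± 0.15 (SE), adjusted p = 0.00306) and was lower with tumors than without (-1.03 ± 0.15 (SE), adjusted p = 0.0128), on the probe with the highest mean. The latter did not pass with the DMH arrays left out of the fit. With slide as a fixed block the difference between the butyrate groups was -1.07, adjusted p = 0.0273, with adjusted p = 0.131 within slide 1, and it ended without array 3 with tumors (adjusted p = 0.0502). Dvl2 encodes a Dishevelled protein, which passes the signal from Frizzled to the destruction complex. The 9 arrays gave -0.91, -1.34 and -1.30 with tumors, -1.04, -0.86 and -0.86 without tumors, and -1.86, -1.49 and -1.78 with DMH alone, and all butyrate arrays were above all DMH arrays. Dvl2 rose without tumors (0.79 ± 0.18 (SE), adjusted p = 0.015). The call ended without array 2 without tumors or DMH array 1 or 3 (adjusted p up to 0.0625). Ctnnb1, which encodes β-catenin, had levels of 4.59, 4.96 and 4.95 with tumors, 4.51, 4.31 and 4.36 without tumors, and 4.74, 4.96 and 4.95 with DMH alone, lowest on the arrays without tumors. Its value was -0.49 without tumors (adjusted p = 0.0537) and -0.05 with tumors. Gsk3b, the kinase that marks β-catenin for breakdown, had -0.46 with tumors and -0.22 without tumors and was not called.

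Several probes of 1 gene did not always give 1 answer, and 16 of the members had more than 1 probe. These p-values were adjusted over all probes. In Apc, another probe ran opposite to the probe used. It was well above background on 2 of 3 arrays with tumors, no array without tumors and 3 of 3 DMH arrays. It was at least 1.73-fold lower without tumors than with DMH alone (adjusted p = 0.00303) and at least 1.95-fold higher with tumors than without (adjusted p = 0.0113), and 2 further probes had 0.31 and 0.00. With the mean of all its probes, Apc stood at -0.040 without tumors against DMH. In Ctnnb1 the second probe rose without tumors (0.64, adjusted p = 0.0161) where the probe used had -0.49. Both other probes of Cd44 fell (-1.70 and -1.51, adjusted p = 0.0361 and 0.0027), against -0.15 on the probe used. For Sox9 the other probes had -2.03, which passed (adjusted p = 0.0492) and was well above background on 2 of the 3 arrays without tumors, and -1.40, against -0.30. The second probe of Prom1 had 0.73 against -1.08, and was lower with tumors than without (-1.23, adjusted p = 0.0244). For Tcf7 and Nkd1, the second probes had -0.35 and -1.05 and did not pass. The second probe of Fzd5 had 0.03 with tumors against without, where the probe used had -1.50. In Tcf7l2 a second probe rose without tumors (0.89, adjusted p = 0.00836) and was lower with tumors than without (-0.61, adjusted p = 0.0478), and another had 0.57. All 3 probes of Myc fell, and both probes of Fzd2 and of Sfrp1 rose, without tumors against DMH. Whether these probes read different transcript forms was not tested.

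**Figure D5:**
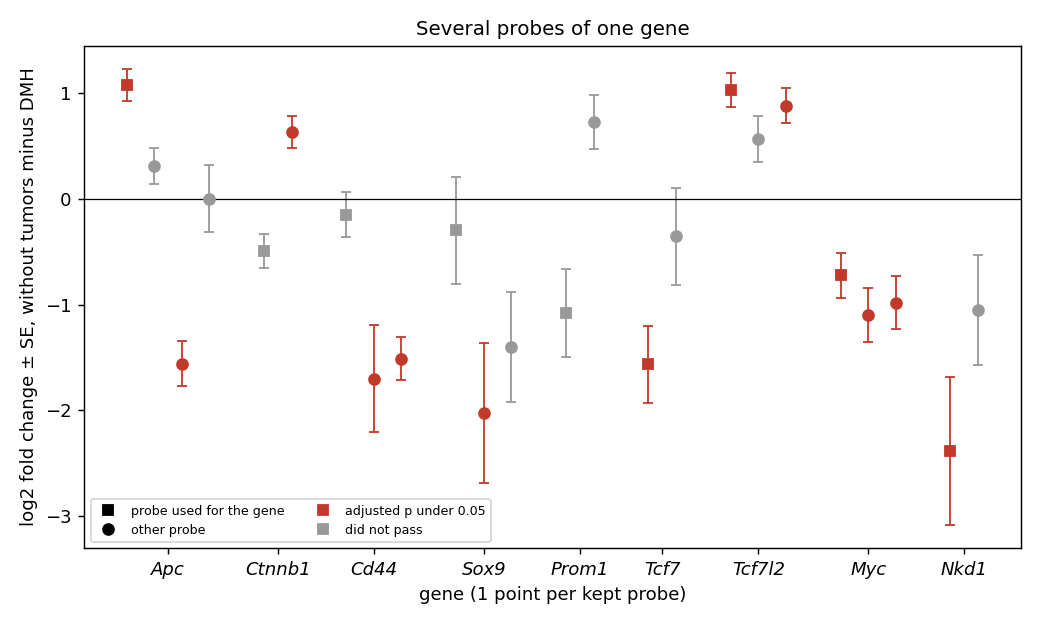
Log2 fold change ± SE without tumors against DMH for each kept probe of 9 genes with several probes, with squares for the probe used and red for an adjusted p under 0.05. The probes of Apc lie on both sides of 0, the lowest being well above background on no array without tumors, while the 3 probes of Myc all lie below 0.

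Of 87 other genes of the pathway, 72 were tested, and 5 rose and 12 fell without tumors against DMH (23.6%, at the background of 30.5%). The 6 with the smallest p began with Wnt7b, a ligand of epithelia. Wnt7b had levels of -5.43, -3.79 and -3.57 with tumors, -5.74, -5.79 and -5.84 without tumors, and -2.78, -2.22 and -3.48 with DMH alone. It was well above background on no array without tumors and on 3 of 3 DMH arrays, and was at least 5.95-fold lower without tumors than with DMH alone (adjusted p = 0.00539). Mmp7, which encodes the metalloproteinase matrilysin and is a target of β-catenin, had levels of -1.01, 1.71 and 1.72 with tumors, -0.37, -3.09 and -2.26 without tumors, and 3.07, 3.04 and 3.13 with DMH alone. All 6 butyrate arrays were below DMH in both genes, and Mmp7 fell without tumors (-4.98 ± 0.85 (SE), adjusted p = 0.00572). Prickle2, of the planar polarity branch, rose (1.69 ± 0.32 (SE), adjusted p = 0.00797). Tle3 and Tle2 encode co-repressors of TCF factors, and Tle3 fell (-1.26 ± 0.24 (SE), adjusted p = 0.00869) while Tle2 rose (1.15 ± 0.23 (SE), adjusted p = 0.01). Csnk1a1, a kinase of the destruction complex, fell (-1.05 ± 0.23 (SE), adjusted p = 0.013).

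In the other comparisons few of the 72 passed. With tumors against DMH, Wnt3, a ligand that acts through β-catenin, rose (1.72 ± 0.39 (SE), adjusted p = 0.0461, well above background on 2 of 3 arrays with tumors and 1 of 3 DMH arrays, and 2.55-fold with the dim DMH arrays raised to the lowest signal well above background) and the receptor gene Fzd9 fell (-1.57 ± 0.28 (SE), adjusted p = 0.0323), which is 2.78% of the genes at the background of 5.70%. Between the butyrate groups 3 were higher and 3 lower with tumors (8.33%, at the background of 13.6%). Wnt3 (at least 2.48-fold, being well above background on no array without tumors), the R-spondin receptor gene Lgr6 (1.24, with 1 of the 3 arrays without tumors not well above background) and the planar polarity gene Vangl2 (1.03) were higher, with adjusted p = 0.0401, 0.0446 and 0.0495. Fzd9 (-1.45), Tle2 (-0.96) and Fzd8 (-0.74) were lower, with adjusted p = 0.0216, 0.0355 and 0.0385. Over all butyrate arrays against DMH 3 rose and 3 fell (8.33%, at the background of 9.21%). Prickle2 (1.43), the secreted inhibitor gene Sostdc1 (2.01) and Bmi1 (0.85), a chromatin regulator of stem cells, rose. Btrc (-0.62), the ligase that targets β-catenin, Ephb2 (-1.27), a crypt receptor and Wnt target, and Wnt7b (-2.20, well above background on 2 of the 6 butyrate arrays) fell. Adjusted p in these 6 ran from 0.0317 for Prickle2 to 0.0492 for Wnt7b.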

How the data were processed

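Arrays were scanned in 1 colour (Cy3), and the deposited spot intensities are processed signals of Agilent Feature Extraction 10.5.1.1, already corrected for background, per the file headers and the submitters' processing notes. The authors' deposited table holds log2 processed signals shifted by a constant for each array, as a comparison with the scanner values showed, and the origin of that constant is not given in the sources used here.

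Control spots and outlier flags were left out, spots of a probe were averaged, and log2 signals were set relative to the 75th percentile of each array. A probe was kept if 3 or more of the 9 arrays had it well above background and each group had at least 2 values, and each gene was read on its probe with the highest mean. Lrp5 was named through an older annotation carried by the DMH files. Groups followed the labels. Fits used limma 3.58.1 (lmFit and eBayes, statmod 1.5.0 for blocks) in R 4.3.3 over all 9 arrays, with Benjamini-Hochberg adjustment over all features at 0.05. For all butyrate arrays against DMH the butyrate groups were merged. Tables used Python 3.11.15, pandas 2.3.3 and numpy 2.4.6, and figures matplotlib 3.10.9. A gene or probe not well above background on any array of 1 group was given a lower bound on its fold, against the lowest signal well above background on each such array.

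The members and lists were chosen with earlier results of these data known. Values on every array are given for members called in at least 1 of the 4 comparisons and for the best known others. The other pathway genes are named by smallest p, up to 6 a comparison. Alternatives covered scaling, background correction (normexp, offset 50), filters, probe choice, priors, array weights, replicate and slide blocks, thresholds and leaving out each array.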

Additional observations from a re-analysis of the deposited data

Results flagged for a closer look

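Among the 6 butyrate arrays, a single array lay apart from the other 5 by Dixon's 95% limit in 4 of the 35 tested genes. These were Tcf7l2 on array 3 with tumors (log2 level 3.38), Fzd1 and Gsk3b on array 1 with tumors (0.55 and -3.65) and Sfrp1 on array 2 without tumors (1.40). Chance flags about 1 in 20 such groups when all arrays come from 1 group, and here both butyrate groups were pooled. The share over all features was not counted.

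By limma's test of the difference, the change against DMH differed between the butyrate groups in 5 of the 35 tested genes. That share of 14.3% was near the 13.6% of all features that passed. With tumors minus without tumors, that difference was 2.14 for Tcf7, 2.02 for Lef1, 0.94 for Wnt5b, -1.5 for Fzd5 and -1.03 for Apc, each with an adjusted p under 0.05 over all features. No gene passed when array 3 with tumors was left out, or when the DMH arrays were left out of the fit. Another probe of Apc ran the opposite way, and the second probe of Fzd5 did not show the difference.

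Axin2, outside the tests because its probe was dim on most arrays, was well above background at log2 levels of -3.79 and -2.69 on arrays 2 and 3 with tumors, and on no DMH array.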

How the results depend on the processing

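The counts of called genes were 2 for mice with tumors and 18 for mice without tumors (each against DMH), 5 with tumors against without, and 3 for all butyrate arrays against DMH. They were within 1.5 times of these in 9 of 26, 16 of 25, 16 of 27 and 10 of 25 alternatives. In that order of comparisons, no scaling gave 0, 9, 0 and 0 and a threshold of 0.01 gave 0, 5, 0 and 0. With tumors against DMH, the authors' values and no filter on dim probes each gave 1, array weights gave 5, and other groups in the fit gave 1. Other groups in the fit means that only the groups compared were fitted. For all butyrate arrays it means that the butyrate groups were kept apart. With tumors against without, the authors' values gave 9, the mean of all probes 3, array weights 15, other groups in the fit 0, slide 1 alone 0 and a threshold of 0.1 gave 11. For all butyrate arrays, no filter gave 1, the mean of probes 5, array weights 23, other groups in the fit 7 and a threshold of 0.1 gave 6. Slide as a random block gave 0, 5 and 0 against DMH (with tumors, without tumors, all butyrate arrays). An alternative chosen after seeing the data averaged DMH arrays 2 and 3 into 1 sample and gave 0, 8 and 0. Leaving out 1 array gave 0 to 3, 6 to 23, 0 to 16 and 0 to 11. For all butyrate arrays there were 11 without array 3 with tumors, 1 without array 2 without tumors, and 1, 0 and 0 without DMH array 1, 2 or 3. With replicate number as a block the counts were 1, 19, 7 and 1. Deviations of same-numbered samples correlated at -0.01 to 0.26, and not every sample correlated best with its own number, so the numbers were not taken to pair samples. Among the genes called without tumors against DMH, those that turned their sign were Tcf7l2 (-0.044), Fzd2 (-0.12), Sfrp1 (-0.24) and Dvl2 (-0.29) without scaling, where the median of all features was -1.0, and Apc (-0.040) with the mean of all its probes. The other causes were not tested. Dim probes limit Axin2 and Wnt5a to bounds.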
